A study of Mus musculus with 172 samples.

Results

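Histone acetylation is set by enzymes that write the mark, enzymes that remove it and proteins that read it, and the writers draw on a nuclear and cytosolic pool of acetyl-CoA. Acetyltransferases move the acetyl group of acetyl-CoA to lysines of histones, zinc-dependent deacetylases (HDACs) and NAD-dependent sirtuins take it off again, and bromodomain proteins bind the acetylated lysine. Outside mitochondria acetyl-CoA is made from citrate, which the carrier SLC25A1 exports and ACLY cleaves, or from acetate by ACSS2. The 34 genes described here were chosen by symbol for these roles among 49671 genes in the count files, and all 34 were found: 10 acetyltransferases, 11 zinc-dependent deacetylases, 7 sirtuins, 2 bromodomain readers and 4 genes of acetyl-CoA supply.

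RNA was measured by Smart-seq2, a full-length method, in 172 single cells of the mouse inner cell mass (ICM) from 19 blastocysts. The embryos came from natural matings between mice that carried 1 Oct4 null allele, on mixed genetic backgrounds, and were wild type (WT), heterozygous (HET) or without a functional Oct4 allele (MUT). The trophectoderm (TE) had been lysed by immunosurgery. At E3.5 there were 58 WT/HET cells from 7 embryos (5 WT and 2 HET) and 29 MUT cells from 4 embryos. At E4.5 there were 37 epiblast (EPI) and 29 primitive endoderm (PrE) cells, both from the same 6 embryos (4 HET and 2 WT), and 19 MUT cells from 2 embryos. Counts were summed over the cells of 1 class in 1 embryo, the embryo was the replicate, and levels are CPM of these sums, each count scaled to a common library total. A difference was called where the p of edgeR's quasi-likelihood test, adjusted over all tested genes, was under 0.05, and calls are those at the standard settings unless another setting is named. E3.5 and E4.5 cells lay on different plates, so stage and plate cannot be told apart. In such sums, fewer cells with a transcript and less RNA per cell cannot be told apart either, so shares of cells with at least 1 count stand beside the levels as a description.

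The genotypes and lineages were checked first. Pou5f1, the gene of OCT4, was at 2.73 to 5.93 CPM in the E3.5 MUT embryos against 199 to 435 CPM in WT/HET embryos, and had no count in either E4.5 MUT embryo. The 12 PrE markers were all detected in PrE, where they summed to 3410 to 9003 CPM, against 16.7 to 74.2 CPM in EPI. The 10 EPI markers summed to 2736 to 4394 CPM in EPI and to 243 to 545 CPM in PrE, where Fgf4 was at 0. TE markers moved with genotype: all 12 were detected in the E4.5 MUT embryos and summed to 8839 and 10197 CPM, against 149 to 392 CPM in EPI, where Cdx2 and Elf5 were at 0, and 834 to 1779 CPM in PrE, where Elf5 was at 0. At E3.5 they summed to 1287 to 2311 CPM in MUT, with Gata2 at 0, and to 272 to 1038 CPM in WT/HET. PrE markers moved too: they summed to 382 to 624 CPM in E3.5 MUT, with Sox17, Sox7 and Foxa2 at 0, against 111 to 317 CPM in WT/HET, with Foxa2 at 0, and to 595 and 827 CPM in E4.5 MUT, with Sox7 and Foxa2 at 0. EPI markers summed to 592 to 1116 CPM in E3.5 MUT against 781 to 1503 CPM in WT/HET, and to 499 and 1182 CPM in E4.5 MUT, where Gdf3 was at 0. Each MUT comparison below therefore also compares embryos that differ in TE, PrE or EPI marker RNA, and the part of these in the results was not tested. Class medians of gene counts per cell lay between 1318327 and 1772045, and the median number of genes detected was 8890 and 9397 in the E3.5 classes and 6514 to 7169 in the E4.5 classes. The median share of reads aligned to several places, which were not counted, was 38.8% and 41.1% in the E3.5 classes and 19.7% to 24.9% in the E4.5 classes, and its part in the stage comparisons was not tested.

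The promoter table from RefSeq (build GRCm38.p6) held 30 of the 34 members, with Hdac1, Hdac3, Hdac10 and Kat6a absent. Shown here are the 250 bases before the start site of 3 members that were called lower in MUT, to let the windows be compared: the citrate carrier Slc25a1, the citrate lyase Acly, and the deacetylase Hdac2. Capitals mark GC boxes (GGGCGG) and CCAAT boxes (CCAAT), both searched on either strand, and no marked motifs overlap. The octamer bound by OCT4 (ATGCAAAT, either strand) was searched too.
Slc25a1, chr16:17928220-17928469, minus strand: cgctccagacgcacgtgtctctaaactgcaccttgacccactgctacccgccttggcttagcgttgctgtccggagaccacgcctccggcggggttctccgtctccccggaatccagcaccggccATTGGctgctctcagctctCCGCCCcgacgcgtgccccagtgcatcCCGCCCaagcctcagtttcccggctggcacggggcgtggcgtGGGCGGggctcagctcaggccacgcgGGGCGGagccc
Acly, chr11:100528001-100528250, minus strand: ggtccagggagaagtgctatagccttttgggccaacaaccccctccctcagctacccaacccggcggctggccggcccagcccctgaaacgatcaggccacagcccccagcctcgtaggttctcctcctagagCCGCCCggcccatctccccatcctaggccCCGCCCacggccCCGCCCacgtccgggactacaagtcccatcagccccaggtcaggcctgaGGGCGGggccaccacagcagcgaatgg
Hdac2, chr10:36974294-36974543, plus strand: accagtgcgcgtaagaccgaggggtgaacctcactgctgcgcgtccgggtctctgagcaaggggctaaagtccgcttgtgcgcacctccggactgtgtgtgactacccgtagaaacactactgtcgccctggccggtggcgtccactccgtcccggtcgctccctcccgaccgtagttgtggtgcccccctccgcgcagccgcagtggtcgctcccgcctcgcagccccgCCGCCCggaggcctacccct
These windows held 25, 14 and 27 CpG dinucleotides and 4, 4 and 1 GC boxes, in that order, and only that of Slc25a1 held a CCAAT box. Of all 32851 promoter windows, 32.7% held a GC box and 33.9% a CCAAT box. The octamer letters were in none of the 3 windows and in 1.60% of all windows, and among the 42 windows of members only 1, of Hdac9, held them.

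Levels of the members ran from absent to abundant. Per kilobase of exon, Hat1, an acetyltransferase of newly made histone H4, had the highest mean level of the 34 genes in all 5 classes, between 112 and 179 CPM per kb, and was found in all 172 cells. In the E3.5 WT/HET ICM Hdac2 came second at 131 CPM per kb followed by Hdac1 at 56.2 CPM per kb. Mean levels were at least 10 CPM in every class for 17 members. Hdac5, Hdac7, Hdac9, Hdac11, Sirt4 and Sirt5 stayed under 10 CPM in every class, and Hdac7, Hdac9 and Hdac11 had counts in 6, 1 and 3 of the 172 cells. Hdac9 had none in the 58 E3.5 WT/HET cells, which allows a share of up to 5.17% of cells with counts. Such limits cover counting error only, take cells as independent although several came from the same embryo, and bear on cells with counts rather than on cells that express the gene.

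**Figure D1:**
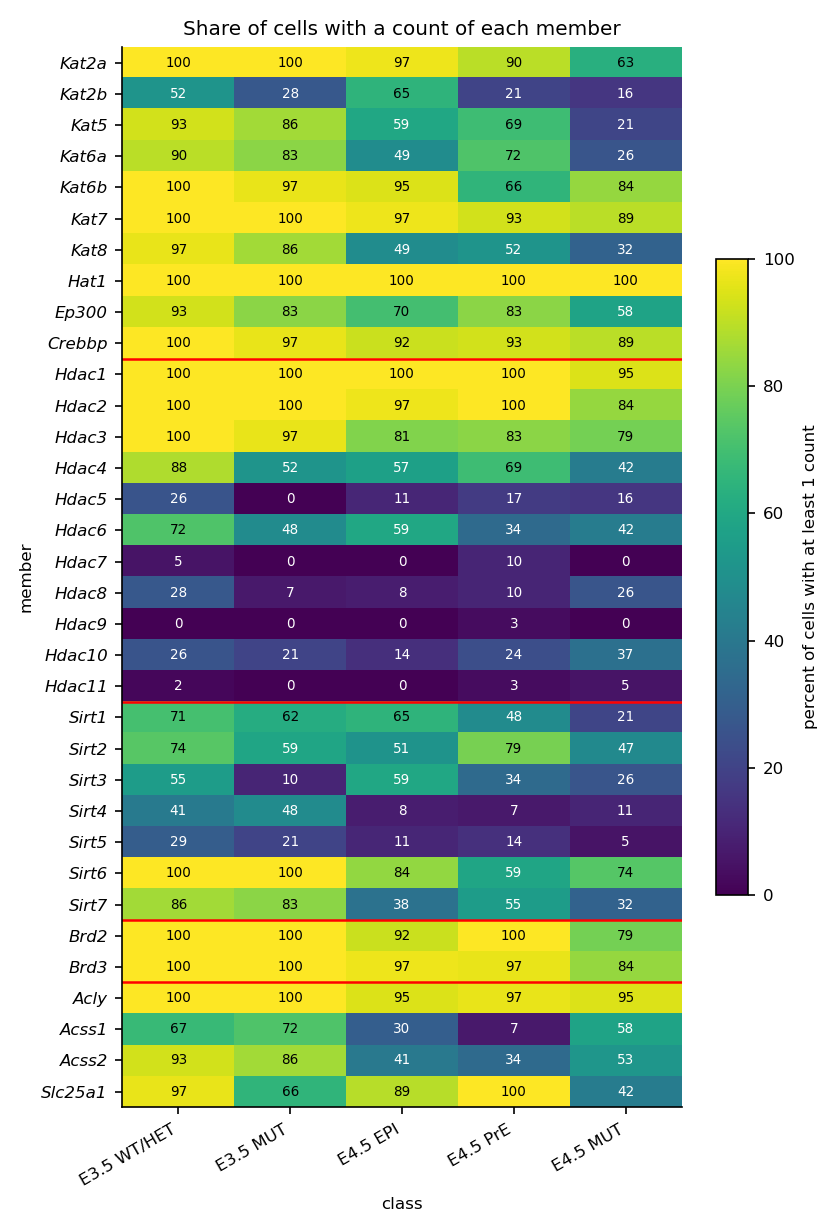
Percent of cells with at least 1 count of each of the 34 members (rows, roles divided by red lines) in the 5 classes (columns). Hat1 was found in 100% of the cells of every class, while Slc25a1 was found in 100% of PrE cells and 42.1% of E4.5 MUT cells.

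Slc25a1 (chr16:17925223-17928219), the gene of the mitochondrial citrate carrier, was lower in MUT than in either lineage at E4.5. It was at 15.7 CPM in MUT embryo 3 and 30.7 CPM in MUT embryo 8. The 6 EPI sums ran from 81.6 to 185 CPM (median 153 CPM) and the 6 PrE sums from 103 to 250.4 CPM (median 188 CPM), and neither overlapped with MUT. MUT was 6.40-fold below EPI (log2 fold change -2.68, SE 0.44, edgeR adjusted p = 0.0087) and 7.79-fold below PrE (log2 fold change -2.96, SE 0.46, edgeR adjusted p = 0.0078). Transcripts were found in 8 of 19 MUT cells (42.1%), 33 of 37 EPI cells (89.2%) and all 29 PrE cells, and after thinning each cell to 500000 gene counts in 31.6%, 89.2% and 100%. Over cells with counts the median was 57.0 CPM in MUT, 169 CPM in EPI and 174 CPM in PrE. Both calls were lost without MUT embryo 3, at log2 fold changes of -2.27 and -2.49.

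At E3.5 the level of Slc25a1 was also low in MUT, but this missed the threshold. The 4 MUT embryos had 5.21, 24.8, 23.7 and 31.1 CPM, and the 7 WT/HET embryos 30.5 to 112 CPM (median 71.7 CPM), so that only WT/HET embryo 16 lay below the highest MUT embryo. The log2 fold change was -1.66 (SE 0.46, edgeR adjusted p = 0.052), and the call was made under 6 of the alternative settings, DESeq2 among them. Cells with counts made up 65.5% in MUT (19 of 29) against 96.6% in WT/HET (56 of 58), or 60.7% against 94.6% after thinning. The test of whether the MUT effect differed between the stages missed the threshold (log2 difference -1.20, SE 0.65, edgeR adjusted p = 0.31). In WT/HET embryos Slc25a1 was higher at E4.5 than at E3.5, by 2.19-fold in EPI (edgeR adjusted p = 0.0063) and by 2.67-fold in PrE (edgeR adjusted p = 0.0014). The first of these calls was lost with cells weighted equally and with WT controls only.

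Acly (chr11:100476353-100528000), which cleaves exported citrate into acetyl-CoA and oxaloacetate, was lower in MUT at E3.5. The 4 MUT embryos had 149, 192, 148 and 153 CPM, all below the 7 WT/HET embryos at 217 to 347 CPM (median 238 CPM). The difference was 1.58-fold (log2 fold change -0.66, SE 0.15, edgeR adjusted p = 0.025). The call was lost without MUT embryo 10, 17 or 19, with log2 fold changes between -0.63 and -0.64. At E4.5 the MUT embryos had 171 and 112 CPM, the PrE embryos 64.0 to 345 CPM and the EPI embryos 113 to 225 CPM, and Acly was not called against either (edgeR adjusted p = 0.73 and 0.72).

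The acetate-using enzymes showed other patterns. Acss2, the nuclear and cytosolic acetyl-CoA synthetase, was at 15.99 to 40.6 CPM in E3.5 WT/HET and 8.24 to 40.7 CPM in E3.5 MUT, and was not called in any comparison at the standard settings. Acss1, the mitochondrial synthetase, was close to absent from PrE: 4 of 6 embryos were at 0, the others at 1.05 and 4.70 CPM, and 2 of 29 cells had counts. PrE was lower than the E3.5 WT/HET ICM at 3.68 to 29.2 CPM, with 1 PrE embryo above the lowest E3.5 embryo (log2 fold change -4.03, SE 1.34, edgeR adjusted p = 0.032), a call that was lost without WT/HET embryo 9, 13, 15 or 18. Without PrE embryo 1, the one at 4.70 CPM, the log2 fold change was -6.17, and with cells weighted equally it was -2.53. The E4.5 MUT embryos were at 54.5 and 36.3 CPM, above all EPI embryos at 1.22 to 32.1 CPM and all PrE embryos, without passing either test (edgeR adjusted p = 0.54 and 0.19). With cells weighted equally Acss1 was called higher in MUT against PrE and against the whole ICM.

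**Figure D2:**
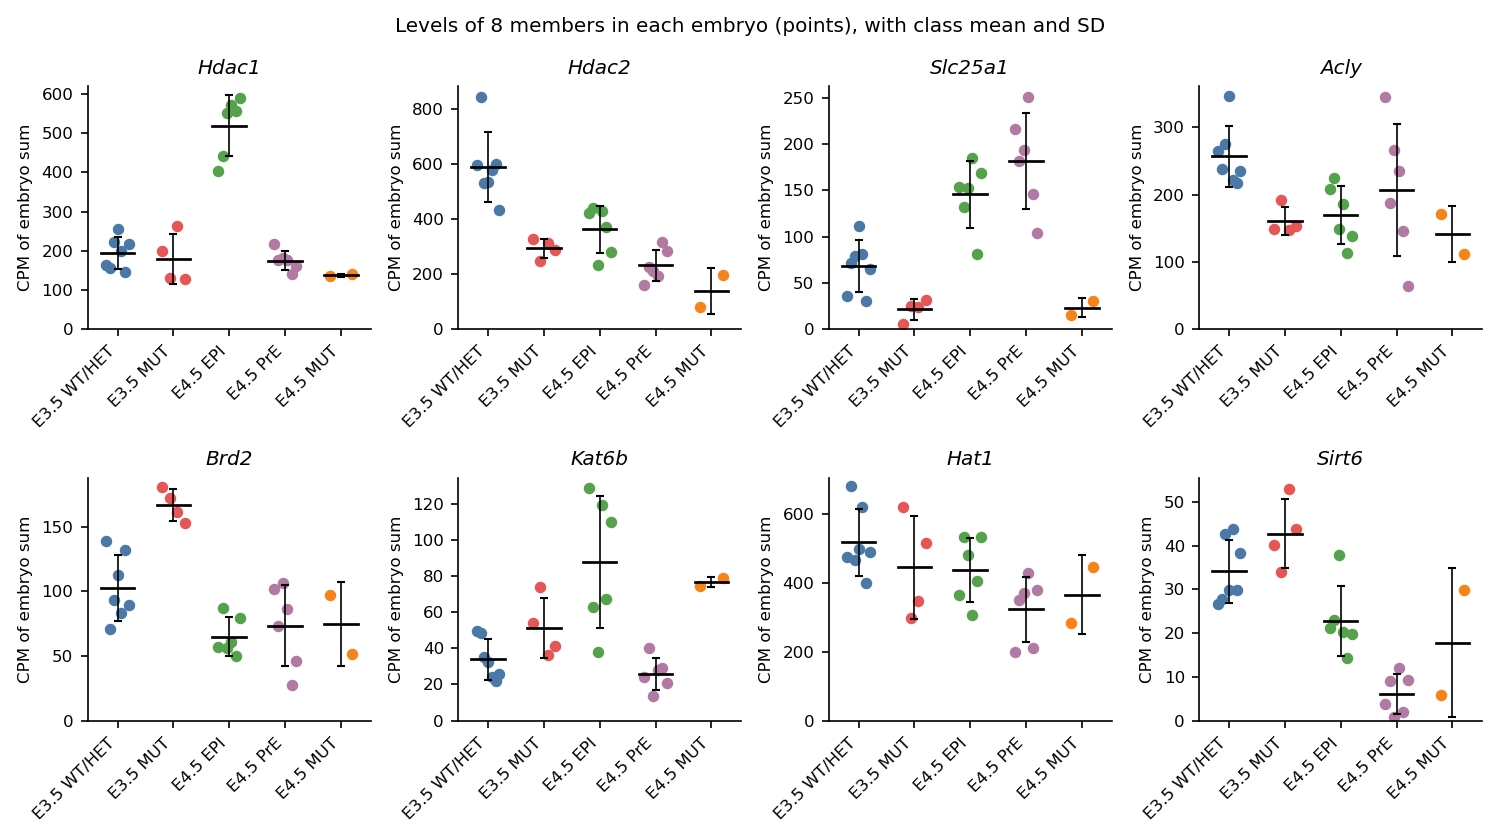
CPM of embryo sums (vertical) for 8 members in the 5 classes, with 1 point per embryo, the class mean as a line and the SD as a bar. All 6 EPI embryos lie above all other embryos for Hdac1, and both E4.5 MUT embryos lie below all EPI and PrE embryos for Slc25a1.

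Hdac1 (chr4:129516104-129542713) and Hdac2 (chr10:36974544-37001889) encode the catalytic subunits that the SIN3, NuRD and CoREST complexes share. Hdac1 was highest in EPI. The 6 EPI sums lay at 402 to 590.3 CPM (median 554 CPM), each above all 6 PrE sums at 139 to 216 CPM (median 177 CPM) and all 7 E3.5 WT/HET sums at 145 to 255 CPM (median 198 CPM). EPI was 2.98-fold above PrE (log2 fold change 1.57, SE 0.15, edgeR adjusted p = 9.03e-06) and 2.73-fold above the E3.5 ICM (log2 fold change 1.45, SE 0.15, edgeR adjusted p = 6.39e-06).

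The E4.5 MUT embryos had 135 and 140.1 CPM of Hdac1, 3.85-fold below EPI with no overlap (log2 fold change -1.95, SE 0.23, edgeR adjusted p = 0.0016). Against PrE, whose lowest embryo lay between them, it was not called (edgeR adjusted p = 0.58). Against the whole WT/HET ICM, whose sums hold EPI and PrE cells in varying shares, MUT was 2.82-fold lower (edgeR adjusted p = 0.012), a call lost without either MUT embryo. At E3.5 the 4 MUT embryos had 199, 130, 262 and 127 CPM, on both sides of the WT/HET range, and Hdac1 was not called (edgeR adjusted p = 0.89). The MUT effect differed between the stages by -1.43 on the log2 scale (SE 0.37, edgeR adjusted p = 0.030). This call was lost without E3.5 MUT embryo 17 (-1.19) and without E4.5 MUT embryo 3 (-1.41) or 8 (-1.44).

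Part of Hdac1 is repeated in processed pseudogenes, and reads that align to several places were not counted. Of all stretches of 125 bases in its transcripts, 21.9% occur letter for letter in Gm10093 or another pseudogene. Gm10093 was at 4.96 to 106 CPM in EPI, 1.95 to 37.99 CPM in PrE, and 18.6 and 24.6 CPM in E4.5 MUT. It was not called for EPI against PrE (edgeR adjusted p = 0.26) or for MUT against EPI (edgeR adjusted p = 0.41), but was higher in EPI than in the E3.5 ICM (log2 fold change 1.40, edgeR adjusted p = 0.036).

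Hdac2 was lower in MUT at E3.5, where Hdac1 was not called. The MUT embryos were at 326, 246, 312 and 289 CPM, all below the 7 WT/HET embryos at 433 to 843 CPM (median 577 CPM), and the difference was 1.97-fold (log2 fold change -0.98, SE 0.17, edgeR adjusted p = 0.0069). It was called with each embryo left out in turn. At E4.5 the MUT embryos had 78.8 and 198 CPM, both below the EPI range of 232 to 439 CPM, and the difference missed the threshold (log2 fold change -1.42, SE 0.40, edgeR adjusted p = 0.076). Without MUT embryo 8 it passed, at -2.22, and without MUT embryo 3 it was at -0.89, the lone MUT embryo being assumed to vary like the controls. In PrE, at 161 to 315 CPM, Hdac2 was 2.55-fold below the E3.5 WT/HET ICM without overlap (edgeR adjusted p = 4.04e-05).

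Per kilobase of exon, the ratio of Hdac1 to Hdac2 was 0.240 to 0.647 in the 7 E3.5 WT/HET embryos, all under 1, and 1.24 to 3.09 in the 6 EPI embryos, all over 1. It was 0.574 to 1.09 in E3.5 MUT, 0.574 to 1.75 in PrE, and 0.918 and 2.23 in E4.5 MUT. The full exon length was used, although 21.9% of the 125-base stretches of Hdac1 and 0% of those of Hdac2 are shared with other genes. A ratio of 1 therefore need not mark equal levels.

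**Figure D3:**
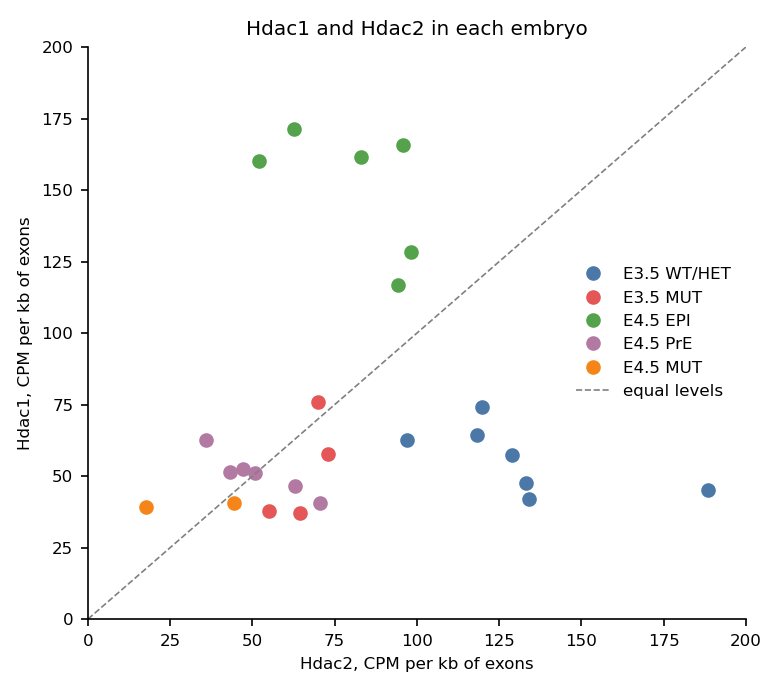
Level of Hdac1 (vertical) against Hdac2 (horizontal), both in CPM per kb of exons, with 1 point per embryo and class and a dashed line at equal values. Hdac1 reads shared with pseudogenes were not counted. The 6 EPI embryos lie above the line and the 7 E3.5 WT/HET embryos below it.

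Among the other deacetylases 1 difference was called, and it rests on low counts. Hdac5, a class IIa deacetylase that shuttles between nucleus and cytoplasm, had no count in 29 E3.5 MUT cells, which allows a share of up to 10.3%, and 218 counts in 15 of 58 WT/HET cells. The 7 WT/HET embryos were at 0.676 to 4.17 CPM (edgeR adjusted p = 0.0093). Against a floor of 3 counts over the whole MUT group the pooled WT/HET level was 35.8-fold higher. That floor covers counting error only and not the spread between embryos. Hdac5 was not among the calls with WT controls only or with a filter at 10 CPM. In the other 5 alternative settings it kept the call, the weakest log2 fold change among them being -0.77. Hdac3, the catalytic subunit of the NCoR and SMRT complexes, was at 20.2 to 70.1 CPM in E3.5 MUT and 67.9 to 88.3 CPM in WT/HET, with overlap. At the standard settings Hdac3 was not called in any comparison, nor were Hdac4, Hdac6, Hdac8 and Hdac10, with class means between 0.487 and 27.8 CPM. Each of these 5 was called under 1 or more alternatives, such as Hdac4 by DESeq2 and Hdac3 with WT controls only, both in PrE against the E3.5 ICM. Hdac7 and Hdac11 were called in none of the comparisons that tested them, and Hdac9 passed the count filter in none.

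No acetyltransferase was called by edgeR between MUT and control embryos at the standard settings. Of the 10, 3 had an unadjusted p under 0.05 at E3.5, 2 against EPI, 1 against PrE and 3 against the whole ICM, and DESeq2 called 1, 2, 1 and 3. Over all genes tested in these 4 comparisons, 16.5% to 21.7% had such a p and DESeq2 called 9.99% to 17.1%. With cells weighted equally, a fit by limma on log2 levels averaged over cells, Kat2a was called at E3.5, against EPI and against the whole ICM. The 1 that DESeq2 called at E3.5 was Kat2a, the GCN5 enzyme of the SAGA complex, at 32.5, 47.7, 39.5 and 26.9 CPM in MUT and 52.0 to 71.6 CPM in WT/HET, with no overlap (log2 fold change -0.69, SE 0.19, edgeR adjusted p = 0.054). At E3.5 edgeR also called Kat2a with the size factors of DESeq2, with a filter at 10 CPM and without MUT embryo 12. The coactivators Ep300 and Crebbp were not called in any comparison at the standard settings, and Crebbp was called in both stage comparisons with cells weighted equally. Crebbp was at 40.5 to 66.8 CPM in E3.5 MUT and 50.7 to 102 CPM in WT/HET, and Ep300 at 11.7 to 44.3 CPM and 15.9 to 67.2 CPM.

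Kat6b (chr14:21481434-21672478), a MYST-family acetyltransferase, differed between the lineages of WT/HET embryos. EPI sums were at 38.1 to 129 CPM (median 88.9 CPM) and PrE sums at 13.5 to 40.1 CPM (median 26.1 CPM), a 3.40-fold difference in which EPI embryo 4 and PrE embryo 2 overlapped (log2 fold change 1.76, SE 0.37, edgeR adjusted p = 0.0062). The E4.5 MUT embryos, at 74.7 and 78.8 CPM, lay inside the EPI range and above all PrE embryos, but were not called against PrE (edgeR adjusted p = 0.11). Kat6b was also 2.63-fold higher in EPI than in the E3.5 ICM (edgeR adjusted p = 0.0025), and Kat7, another MYST enzyme, 1.72-fold, at 129 to 339.8 CPM against 105 to 147 CPM (edgeR adjusted p = 0.0064), and both calls were lost with cells weighted equally. Kat8, which acetylates lysine 16 of histone H4, was 2.75-fold lower in EPI, at 4.75 to 25.1 CPM against 21.1 to 43.0 CPM (edgeR adjusted p = 0.018). Hat1 was 1.61-fold lower in PrE, at 199.96 to 428 CPM, than in the E3.5 ICM at 399 to 681 CPM (edgeR adjusted p = 0.011). The calls of Kat8 and Hat1, and that of Kat6b between EPI and PrE, were lost with WT controls only. In that fit of EPI against PrE, 1 of all 10415 genes tested was higher and 2 were lower.

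None of the 7 sirtuins was called by edgeR between MUT and control embryos at the standard settings. At an unadjusted p under 0.05 there was 1 at E3.5, Sirt3, and 0 in the 3 comparisons at E4.5, and DESeq2 called Sirt3 at E3.5. Over all genes, 21.4% had such a p at E3.5 and 16.5% to 21.7% in those 3 comparisons. DESeq2 called 13.3% of all genes at E3.5. With cells weighted equally limma also called Sirt3 at E3.5. Sirt1 was at 43.3 CPM in E4.5 MUT embryo 3 and at 0 CPM in embryo 8, against 15.6 to 57.0 CPM in EPI. Without embryo 3 edgeR called Sirt1 against EPI and against the whole ICM, which rests on embryo 8 alone. Sirt3, a mitochondrial deacetylase, was at 0, 1.07, 1.196 and 0 CPM in E3.5 MUT, under all 7 WT/HET embryos at 2.28 to 8.97 CPM, with counts in 3 of 29 against 32 of 58 cells (edgeR adjusted p = 0.12). In EPI it was at 7.84 to 46.7 CPM, 4.57-fold above the E3.5 WT/HET ICM (edgeR adjusted p = 0.0033). Sirt2, a mainly cytoplasmic deacetylase, was at 8.14 to 91.2 CPM in PrE against 6.51 to 13.5 CPM in the E3.5 ICM (5.38-fold, edgeR adjusted p = 0.00056), and 5 of the 6 PrE embryos lay above all E3.5 embryos. With WT controls only, the log2 fold change of Sirt2 was 1.17 in place of 2.43 and the call was lost (edgeR adjusted p = 0.21), and the calls of Sirt3 in EPI and Sirt6 in PrE were lost too. Sirt6, a chromatin-bound deacetylase, was lower in PrE, at 0.815 to 11.96 CPM against 26.7 to 43.7 CPM without overlap (5.53-fold, edgeR adjusted p = 0.0030). It was found in all 58 E3.5 WT/HET cells and in 17 of 29 PrE cells (58.6%), or 44.8% after thinning.

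BRD2 and BRD3 are BET proteins that bind acetylated histone tails. Brd2 (chr17:34112023-34122634) was the only member called higher in MUT at the standard settings. Its 4 E3.5 MUT embryos were at 180.4, 173, 161 and 153 CPM, above the 7 WT/HET embryos at 70.5 to 139 CPM (median 93.6 CPM), a 1.64-fold difference (log2 fold change 0.72, SE 0.19, edgeR adjusted p = 0.046). The call was lost in 9 of 11 fits with an embryo left out, at log2 fold changes from 0.63 to 0.75. At E4.5 the MUT embryos had 97.6 and 51.4 CPM, against 49.7 to 87.2 CPM in EPI and 27.3 to 107 CPM in PrE. Brd3 had class means of 51.3 to 57.4 CPM and was not called in any comparison, at the standard settings or under an alternative. Brd2, Kat8, Hat1, Sirt2, Sirt3 and Acss1 each overlap a gene on the other strand, as do some uncalled members, Acss2 and Kat5 among them. The libraries did not mark strand, so that reads in such overlaps cannot be assigned.

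**Figure D4:**
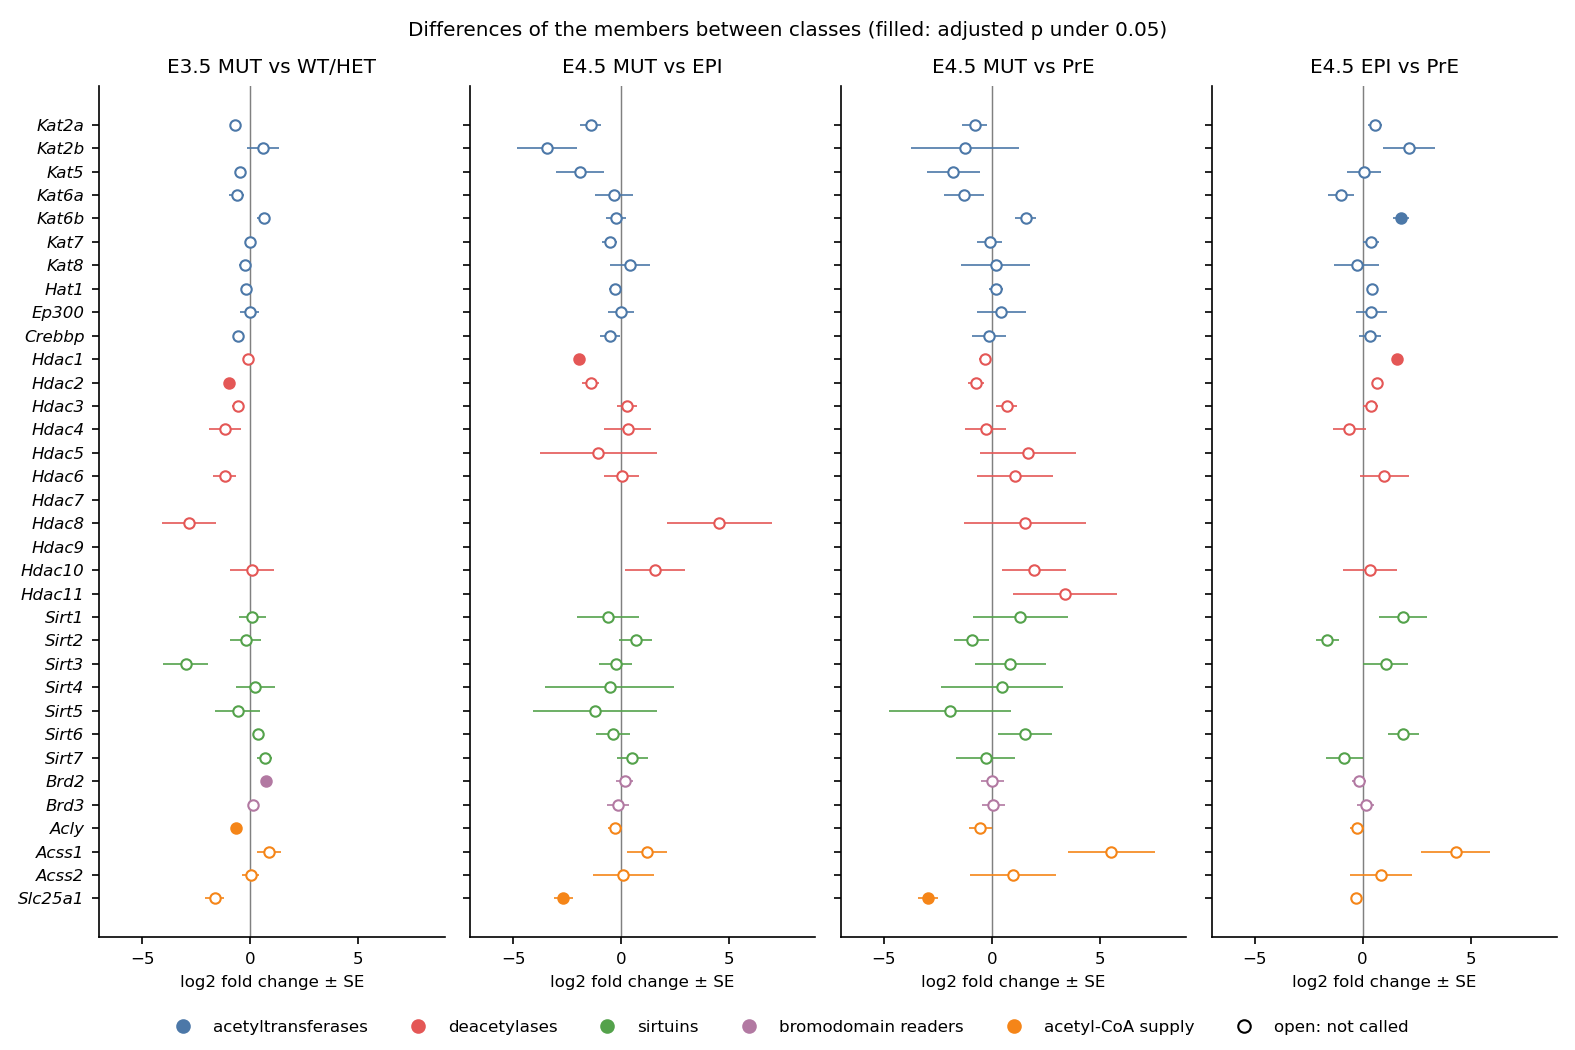
Log2 fold change with its SE (horizontal) for each member (rows) in 4 comparisons, coloured by role, with filled points where the adjusted p was under 0.05. Pairs in which 1 class had no count are left out, and the filled points against EPI are Hdac1 at -1.95 and Slc25a1 at -2.68.

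Few members were called in each comparison. At E3.5, of 31 members tested, 1 was higher in MUT (background 3.2% of genes) and 3 were lower (background 2.98%), with a median log2 fold change of -0.21 against -0.02 over all genes. There 11 members had an unadjusted p under 0.05 in edgeR, where 21.4% of all genes did, and DESeq2 called 7, where it called 13.3% of all genes. Against EPI, 0 of 31 were higher (background 2.3%) and 2 lower (background 2.62%), with a median of -0.29 against -0.03. Against PrE, 0 of 33 were higher (background 1.74%) and 1 lower (background 2.07%), with a median of 0.06 against 0.05. Against the whole WT/HET ICM, 0 of 33 were higher (background 3.1%) and 2 lower (background 4.27%), with a median of -0.05 against -0.10. In these 3 comparisons by edgeR, 5, 3 and 8 members had an unadjusted p under 0.05 in either direction, where 19%, 16.5% and 21.7% of all genes did, and DESeq2 called 5, 2 and 6, where it called 13.2%, 9.99% and 17.1% of all genes. The 3 share the same 2 MUT embryos. With WT embryos alone as controls, 2 against 2, edgeR called 0 members in each of them and 0 for EPI against PrE. Over all genes these fits called few: 36 higher and 12 lower of 11644 against EPI, and 18 and 9 of 10667 against PrE. They called 19 and 6 of 12048 against the whole ICM, and 1 and 2 of 10415 for EPI against PrE.

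EPI against PrE gave 2 of 27 members higher (background 4.61%) and 0 lower (background 5.2%), where edgeR had 6 at an unadjusted p under 0.05 (21.6% of all genes) and DESeq2 called 6 (14.8% of all genes). The test of the stage difference of the MUT effect gave 0 of 33 positive (background 2.71%) and 1 negative (background 2.75%), with 6 at an unadjusted p under 0.05 (20.4% of all genes) and 3 by DESeq2 (11.3% of all genes). From E3.5 to EPI, 5 of 31 members were higher (background 15.5%) and 4 lower (background 16.4%), Hdac2, Brd2 and Acly being lower beside Kat8. From E3.5 to PrE, 2 of 31 were higher (background 14.8%) and 4 lower (background 16.9%). With WT controls only, 4 of the 9 and 3 of the 6 stage calls were kept, but others were gained, and 6 and 9 members were called in all. Over all genes those fits called 1295 higher and 1852 lower of 13391 for EPI, and 990 and 2206 of 12415 for PrE. The stage counts at the standard settings lie near or under their backgrounds, and counts of 1 to 3 members in the MUT comparisons were not tested against theirs.

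Subunits of the complexes around these enzymes were taken from lists set by function. The shares of all genes called, to be read beside the counts of these and the following lists, were 3.2% higher and 2.98% lower in MUT at E3.5, 2.3% and 2.62% against EPI, and 1.74% and 2.07% against PrE. No test set a list against these shares. Of 38 deacetylase complex subunits tested at E3.5, 1 was higher and 2 were lower in MUT, and of 40 tested against EPI at E4.5, 1 was higher and 2 were lower. Sap30, a SIN3 complex subunit, was at 5.63 to 14.2 CPM in E3.5 MUT against 25.1 to 63.8 CPM in WT/HET (log2 fold change -2.26, edgeR adjusted p = 0.0045). At E4.5 it was at 9.96 and 10.46 CPM in MUT, 132 to 262 CPM in EPI and 8.32 to 31.4 CPM in PrE, with log2 fold changes of -4.23 for MUT against EPI (edgeR adjusted p = 0.00046) and 3.42 for EPI against PrE (edgeR adjusted p = 1.47e-05). Mbd3, of the NuRD complex, was lower in MUT at E3.5 (9.62 ± 3.87 against 22.3 ± 4.87 CPM, SD, n = 4 and 7, edgeR adjusted p = 0.049) and against EPI (37.5 ± 7.77 against 131 ± 34.8 CPM, SD, n = 2 and 6, edgeR adjusted p = 0.025). Mta3, also of NuRD, was the 1 higher in MUT each time, by 0.82 on the log2 scale at E3.5 (edgeR adjusted p = 0.019), 1.65 against EPI (edgeR adjusted p = 0.049) and 2.33 against PrE (edgeR adjusted p = 0.023).

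Of 52 acetyltransferase complex subunits tested at E3.5, 0 were higher in MUT and 1 was lower, Mbip of the ATAC complex (23.8 ± 11.1 against 76.4 ± 36.04 CPM, SD, n = 4 and 7, edgeR adjusted p = 0.037). Of 53 tested against EPI, 2 were higher and 1 was lower. Actl6a, an actin-related subunit of NuA4 and other complexes, was at 60.3 and 69.4 CPM in MUT, 283 to 829.7 CPM in EPI and 187 to 257 CPM in PrE, lower in MUT than in both (log2 fold changes -3.06 and -1.74, edgeR adjusted p = 0.0030 and 0.0061). Rbbp7, a histone-binding partner of HAT1 and HDAC complexes, was at 1550 and 1958 CPM in MUT, above EPI at 169 to 762 CPM (edgeR adjusted p = 0.030) and PrE at 514 to 1025 CPM (edgeR adjusted p = 0.035). Msl3, of the MSL complex of KAT8, was at 20.2 and 35.2 CPM in MUT and at most 0.419 CPM in EPI (edgeR adjusted p = 0.040). Both MUT embryos lay inside the range of Msl3 in PrE, 2.21 to 43.6 CPM. Rbbp7 and Msl3 lie on chromosome X. Xist, which the inactive X of females expresses, was at 135 CPM in MUT embryo 3, 2.74 CPM in MUT embryo 8, 0 to 10.48 CPM in EPI and 0 to 69.1 CPM in PrE. Eif2s3y, on chromosome Y, was at 0 CPM in MUT embryo 3 and 45.46 CPM in MUT embryo 8. In embryo 5 it was at 1.376 CPM in EPI and 0 CPM in PrE. The other embryos had 69.998 to 108.2 CPM of Eif2s3y in EPI and 35.02 to 75.87 CPM in PrE. Xist in embryo 5 was at 0.479 CPM in EPI and 69.1 CPM in PrE, so low Xist in EPI did not mark a male embryo. The part of embryo sex in these results was not tested.

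Of 17 other acetyltransferases, 0 were higher and 2 lower in MUT than in EPI: Naa40, which acetylates the amino ends of histones H4 and H2A (10.7 ± 1.37 against 84.1 ± 26.7 CPM, SD, n = 2 and 6, edgeR adjusted p = 0.0089), and Cdyl, a chromodomain protein (7.18 ± 3.73 against 69.4 ± 17 CPM, SD, n = 2 and 6, edgeR adjusted p = 0.0098). In PrE Cdyl was at 21.7 ± 13.2 CPM (SD, n = 6), and of 16 tested against PrE, 0 were called for MUT. Of 28 other bromodomain and YEATS readers, 1 was higher in MUT at E3.5, Baz1a (150.2 ± 55.0 against 60.1 ± 21.7 CPM, SD, n = 4 and 7, edgeR adjusted p = 0.034), and 1 was lower than in EPI, the corepressor gene Trim28 (417 ± 15.3 against 837 ± 119 CPM, SD, n = 2 and 6, edgeR adjusted p = 0.018). In PrE Trim28 was at 248 ± 108 CPM (SD, n = 6), a mean below that of MUT, and 0 of 28 readers were called for MUT against PrE.

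Of 20 genes of the pyruvate and citrate route tested at E3.5, 3 were higher in MUT and 0 lower. They were Pdp2, a phosphatase that activates pyruvate dehydrogenase (525 ± 88.7 against 281 ± 51.4 CPM, SD, n = 4 and 7, edgeR adjusted p = 0.0078), Mpc1 of the mitochondrial pyruvate carrier (129 ± 12.1 against 71.4 ± 13.8 CPM, edgeR adjusted p = 0.011) and Slc25a10, the dicarboxylate carrier (79.2 ± 22.8 against 49.2 ± 6.20 CPM, edgeR adjusted p = 0.049). Against EPI 2 of 21 were higher and 0 lower: Pdp2 (118 and 260 CPM against 15.6 to 47.7 CPM, edgeR adjusted p = 0.0095) and the malic enzyme gene Me1 (286.5 and 332.5 CPM against 10.55 to 42.8 CPM, edgeR adjusted p = 0.0030). In PrE Me1 was at 88.9 to 316 CPM, and MUT was not called against it (edgeR adjusted p = 0.44). Against PrE 2 of 19 were higher and 0 lower, Mpc1 and Pdha1 of pyruvate dehydrogenase (log2 fold changes 2.59 and 1.26, edgeR adjusted p = 0.027 and 0.046). Against the whole WT/HET ICM 4 of 21 were higher, Pdp2 and Pdha1 among them, and 1 was lower. The backgrounds there were 3.1% and 4.27% of all genes. The lower one was Slc13a5, which had no count in E4.5 MUT (edgeR adjusted p = 0.014).

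Among users of acetyl-CoA, Fasn, the fatty acid synthase gene, was lower in MUT than in the whole E4.5 ICM (log2 fold change -2.16, edgeR adjusted p = 0.0074). Acat2, of acetoacetyl-CoA synthesis, was lower in MUT than in PrE (122 ± 4.91 against 385 ± 114 CPM, SD, n = 2 and 6, edgeR adjusted p = 0.028). In EPI it was at 148 ± 41.5 CPM (SD, n = 6), and MUT was not called against EPI (edgeR adjusted p = 0.69).

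Of genes that make or use NAD, the cofactor of sirtuins, 0 of 12 were higher and 2 lower in MUT than in EPI. Parp1 was at 188 ± 30.1 against 546 ± 69.2 CPM (SD, n = 2 and 6, edgeR adjusted p = 0.0035), and Nmnat2 had no count in MUT or PrE and was at 5.03 to 32.1 CPM in EPI (edgeR adjusted p = 0.026). In PrE Parp1 was at 194.5 ± 60.9 CPM (SD, n = 6), and of 9 genes tested against PrE, 0 were called for MUT. At E3.5, 1 of 10 was lower in MUT and 0 were higher: Naprt, at 0 to 0.281 CPM in MUT and 0.244 to 6.25 CPM in WT/HET (edgeR adjusted p = 0.021).

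**Figure D5:**
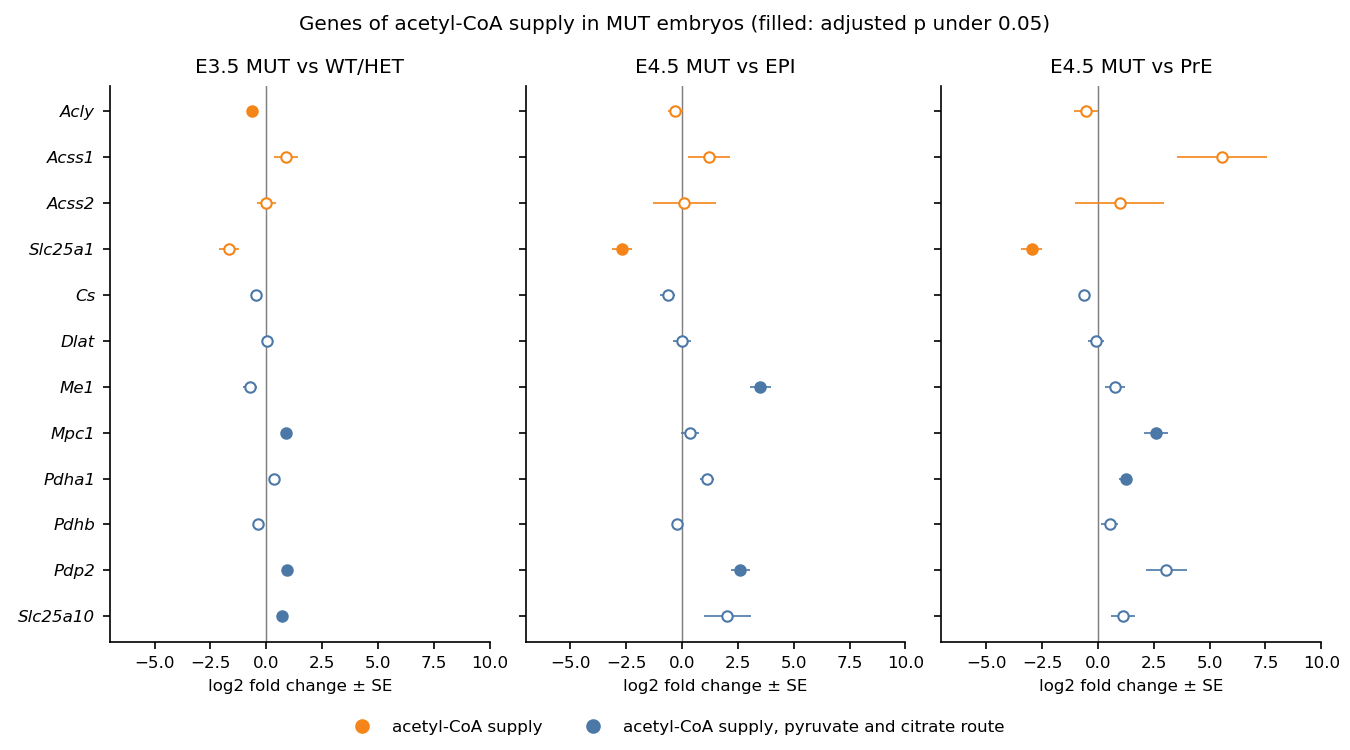
Log2 fold change with its SE (horizontal) for 12 genes of acetyl-CoA supply (rows) in 3 comparisons of MUT with controls, coloured by list, with filled points where the adjusted p was under 0.05. Shown are the supply genes called in any of the 3 comparisons, with Acss1, Acss2, Cs, Dlat and Pdhb added by name. Most other uncalled supply genes are left out. Slc25a1 lies left of 0 in each panel, at -1.66, -2.68 and -2.96.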

How the data were processed

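Single ICM cells were sequenced by the study as 125-bp read pairs from Smart-seq2 libraries, which mark neither strand nor molecules. The authors aligned reads to GRCm38/mm10 with STAR and counted them per gene of Ensembl release 87 with HTSeq, and deposited raw read counts per gene and cell, without normalization. Reads outside genes (4.72%), in overlapping genes (8.65%) and aligned to several places (32.3%) were left out. Cells had 363819 to 4644070 gene counts, no 2 cells were identical, and sums held 2736296 to 17453036 counts. Groups came from the labels, and embryo and plate of each cell from the study's sample table, matched by cell title.

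Counts were summed per class and embryo. Genes that passed filterByExpr entered edgeR (version 4.0.16, with limma 3.58.1 in R 4.3.3), TMM scaling and its quasi-likelihood test, with Benjamini-Hochberg adjustment over all tested genes and a threshold of 0.05. The study's own test, which treats cells as replicates, was not used. P-values measure the spread between embryos. The fits were tested on simulated data. The members and lists were chosen with earlier results of these data known. Values in full are given for called members (in the stage comparisons for at most 6, by absolute log2 fold change), and of the other lists for at most 3 called genes per comparison, by adjusted p. Some results of the list of acetyl-CoA users are not reported here. Kat2a and other members named without a call were chosen after their values were seen. EPI and PrE sums came from the same 6 embryos, which pairs them, and their deviations from the lineage means correlated by 0.00886 to 0.0458. Alternatives were DESeq2 1.42.0, its size factors, other count filters, equal weight of cells, no shallow cells, WT controls only, each embryo left out, and the embryo as a block. Equal weight of cells used limma in place of edgeR, on log2 CPM averaged over the cells of a class in an embryo.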

Additional observations from a re-analysis of the deposited data

Results flagged for a closer look

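Groups of 4 to 7 embryos were looked at only where the highest embryo reached 10 CPM. A low gene could thus enter through the embryo that stands apart, and the chance rate of about 1 in 20 unselected groups does not apply. In 13 of 107 such groups, 1 embryo stood apart from the others by Dixon's criterion. In E3.5 WT/HET these were Hdac2 in embryo 11 (843.2 CPM, next 599.8), Kat6a in embryo 9 (48.21 CPM, next 28.43) and Ep300 in embryo 13 (67.23 CPM, next 35.75). In E3.5 MUT they were Acly in embryo 12 (192.3 CPM, next 153.3) and Kat5 in embryo 19 (25.89 CPM, next 20.13). In EPI they were Ep300 in embryo 7 (75.39 CPM, next 33.8), Sirt6 in embryo 4 (37.82 CPM, next 22.93), Hdac5 in embryo 5 (27.1 CPM, next 6.037) and Sirt4 in embryo 1 (13.66 CPM, next 4.665). In PrE they were Hdac8 in embryo 6 (44.27 CPM, next 4.786), Sirt5 in embryo 6 (10.09 CPM, next 1.975), Sirt1 in embryo 7 (32.25 CPM, next 10.08) and Kat2b in embryo 7 (20.27 CPM, next 5.946).

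The MUT effect on Hdac1 differed between E4.5 and E3.5 by -1.43 on the log2 scale in the test of the difference itself.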

How the results depend on the processing

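Of 497 alternative values of 27 called fold changes, 448 kept direction and call, 49 lost the call and 0 reversed. DESeq2 called 7 members at E3.5 (4 by edgeR), 5 against EPI (2), 2 against PrE (1), 6 for EPI against PrE (2), 6 against the whole ICM (2) and 3 for the stage difference (1). Weighting cells equally moved the median log2 fold change of all genes by over 0.1 at E3.5 (to -0.23), against EPI (to -0.20), against PrE (to -0.24) and from E3.5 to EPI and PrE (to -0.63 and -0.62). The counts were then 2 against PrE, 5 for EPI against PrE, 4 against the whole ICM, 13 for PrE against E3.5 (6) and 2 for the stage difference. Over all genes these fits called 506 higher and 591 lower of 12246 against PrE, and 811 and 1013 of 9762 for EPI against PrE. They called 775 and 995 of 14105 against the whole ICM, and 1194 and 3997 of 10800 for PrE against E3.5. For the stage difference they called 722 and 723 of 16410. With WT controls only, 2 against 2 embryos at E4.5, the counts of members were 2 at E3.5 and 0 against EPI, against PrE, for EPI against PrE, against the whole ICM and for the stage difference. Over all genes these fits called 225 higher and 210 lower of 11609 at E3.5, and 36 and 12 of 11644 against EPI. They called 18 and 9 of 10667 against PrE, and 1 and 2 of 10415 for EPI against PrE. Against the whole ICM they called 19 and 6 of 12048, and for the stage difference 272 and 198 of 15109. From E3.5 to EPI the fit with WT controls only kept 4 of 9 calls (Brd2, Hdac2, Kat8, Sirt3 and Slc25a1 lost) and to PrE 3 of 6 (Hat1, Sirt2 and Sirt6 lost). It also gained Hdac5 and Kat2a in EPI, for 6 calls in all. In PrE it gained Acss2, Hdac3, Kat2b, Sirt1, Sirt3 and Sirt4, for 9 calls in all. Without a filter, in a fit of 22487 in place of 12075 genes, 2 were called at E3.5, and Acly and Brd2 were lost. With an embryo left out the counts ran from 2 to 5 at E3.5, 2 to 3 against EPI, 0 to 1 against PrE, 2 to 3 for EPI against PrE, 2 to 2 against the whole ICM, 8 to 11 for EPI against E3.5, 5 to 7 for PrE against E3.5 and 0 to 2 for the stage difference.

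In the paired fit of EPI against PrE, with the embryo as a replicate block, 2 members were called, both also called without it, and it changed no other call among the members. Of 70 alternative shares of cells, 67 moved by less than their interval. The share with Sirt6 moved in EPI from 83.8% to 67.6% at 5 counts and after thinning, and in PrE from 58.6% to 20.7% at 5 counts. The 2 E4.5 MUT embryos limit what could be called at that stage.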
